A study of Mus musculus with 6 samples.

Results

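Mitochondrially encoded genes are the 37 genes of the mouse mitochondrial genome, taken here as every row whose Ensembl identifier maps to a symbol starting with mt-. They make up 37 of the 57180 rows with an identifier: 13 protein-coding genes, 2 rRNA genes and 22 tRNA genes. Beside them stand nuclear copies of mitochondrial sequence on chromosome 1, of which Gm28437, Gm10925 and Gm28661 were named with the gene set and 4 more lie in the same block.

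RNA came from calvaria-derived cells, grown out of the skull vault and cultured in a bone-forming (osteogenic) medium, in 3 wt and 3 gld libraries. The wt cells came from C57BL/6 mice. The gld cells, titled FasL KO, came from B6Smn.C3-Faslgld/J mice, which are homozygous for the gld mutation of the Fas ligand gene, a germline change present in every cell type of the culture. The gld line and the controls are named as different strains, not littermates, so the gld allele and other strain differences cannot be told apart. The labels name no allele or agent for the controls, and an arm of gld cells given recombinant FasL is not analysed here. Whether the 3 libraries of a genotype stem from different mice or dishes is not stated, and every p-value below therefore reflects library-to-library spread that could be technical. The libraries held 2011173 to 3105322 counts in wt and 4048258 to 5245546 in gld, so every gld library was deeper than every wt library. Fasl was listed at 0 in all 6 libraries, so its level could not check the labels, and Fas, its receptor, had a log2 difference of -0.03 ± 0.31 (SE, n = 3 per group; edgeR adjusted p = 0.973).

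The mitochondrial genome is a small circle present in many copies per cell. Both of its strands are transcribed into long precursors, from which the tRNAs are cut out, and cutting at the tRNAs frees the rRNAs and mRNAs that lie between them. The mRNAs encode core subunits of complexes I, III, IV and V of oxidative phosphorylation. The other subunits, and all protein factors that copy and transcribe the circle and translate its mRNAs, are encoded by nuclear genes. In mammals most of the freed mRNAs receive short poly(A) tails, which in some of them also complete a stop codon that the DNA encodes only in part. A 3′ mRNA kit such as the one used here primes on A tails, so its reads are designed to fall near such ends; where the reads of these libraries fall was not measured.

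The annotated ends of mitochondrial protein-coding genes are shown because the kit is designed to read near mRNA ends. The last 30 bases of 4 genes follow, 5′ to 3′ on the coding strand, with the encoded stop codon, or the part of it that is encoded, in capitals (GENCODE M21, GRCm38). They lie at MT positions 3678 to 3707, 9361 to 9390, 11515 to 11544 and 15259 to 15288.
mt-Nd1: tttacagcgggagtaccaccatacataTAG
mt-Co3: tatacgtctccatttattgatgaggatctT
mt-Nd4: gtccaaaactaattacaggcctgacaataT
mt-Cytb: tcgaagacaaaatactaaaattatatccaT
As annotated, mt-Co3, mt-Nd4 and mt-Cytb end in a single T, and the other 10 of the 13 in a full TAA or TAG. Annotated ends need not be mRNA ends. mt-Nd1 overlaps the tRNA gene mt-Ti, which starts at MT 3706 on the same strand. mt-Nd2, which ends at MT 4951, likewise overlaps mt-Tw, which starts at MT 4950. In both, the last bases of the TAG also belong to the tRNA gene, and where the mRNA ends was not measured. The frames of mt-Atp8 and mt-Nd4l end within a shared mRNA.

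The nuclear copies lie on the minus strand of chr1:24611535-24616197 (GRCm38) and repeat a stretch of the mitochondrial genome from the last part of mt-Co1 to the first part of mt-Nd4. The 75 bases before the stop codon are shown for 3 pairs, since 75 bases is the read length and a read from here could come from either place. No base is in capitals because the members of each pair do not differ at any position.
mt-Co2: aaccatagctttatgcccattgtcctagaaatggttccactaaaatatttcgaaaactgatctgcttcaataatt
Gm28661: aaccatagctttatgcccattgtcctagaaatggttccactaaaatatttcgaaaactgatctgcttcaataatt
mt-Atp6: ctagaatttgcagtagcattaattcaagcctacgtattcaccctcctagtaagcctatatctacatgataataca
Gm10925: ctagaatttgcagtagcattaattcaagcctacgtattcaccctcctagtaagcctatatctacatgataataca
mt-Co3: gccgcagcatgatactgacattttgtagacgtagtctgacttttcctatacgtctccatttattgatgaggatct
Gm28437: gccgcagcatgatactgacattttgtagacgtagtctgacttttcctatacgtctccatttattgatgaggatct

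Mitochondrially encoded RNA took a larger share of the counts in gld than in wt. The 37 genes held 9.45%, 9.51% and 8.69% of all counts in the wt libraries and 13.4%, 14.3% and 13.6% in the gld libraries. The groups did not overlap, and the mean rose from 9.22% ± 0.453 to 13.8% ± 0.487 (SD, n = 3 each), a ratio of 1.49 (two-sided exact permutation p = 0.1, the smallest that 3 against 3 libraries can give). In bulk RNA, more cells rich in mitochondrial transcripts and more of these transcripts per cell cannot be told apart, and mitochondrial DNA was not measured.

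The mRNAs and rRNAs carried almost all of it. The 13 mRNAs held 4.85% ± 0.157 of counts in wt and 7.69% ± 0.125 in gld, and the 2 rRNAs 4.32% ± 0.339 and 6.03% ± 0.510 (SD, n = 3 each). Neither class overlapped between the groups (exact permutation p = 0.1 for each). The 22 tRNA genes held 0.0439% ± 0.00703 and 0.0538% ± 0.0109 of counts and overlapped on this unscaled share (exact permutation p = 0.5). Summed in CPM on the TMM scale, which allows for composition, they stood at 458, 465 and 335 in wt and 506, 499 and 715 in gld, without overlap (exact permutation p = 0.1). By complex, the ratio of the gld to the wt mean share was 1.61 for the 7 mRNAs of complex I, 1.61 for mt-Cytb of complex III, 1.56 for the 3 of complex IV and 1.43 for the 2 of complex V. Among the 20 genes with the most counts in a library, 6, 6 and 7 were mitochondrial in wt and 9, 9 and 8 in gld, and mt-Rnr2 came first in all 6.

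**Figure D1:**
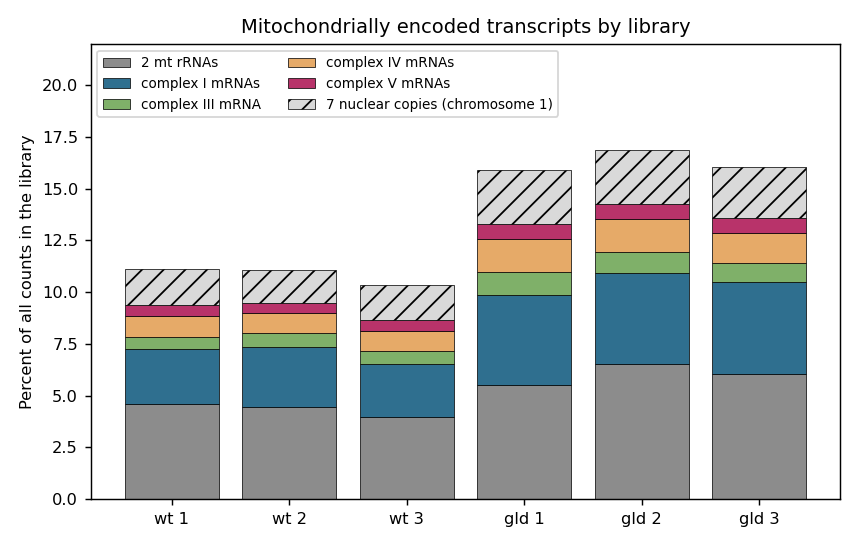
Percent of all counts in each library (vertical axis) that fall in the mitochondrial rRNAs, the mRNAs of complexes I, III, IV and V and the 7 chromosome 1 copies, stacked per library (3 wt, 3 gld). The mitochondrial part reaches 8.69% to 9.51% in wt and 13.4% to 14.3% in gld, and the tRNAs are too few to be drawn.

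Per gene, 21 of the 37 passed the filter on low counts and were tested: all 13 mRNAs, both rRNAs and 6 tRNAs. The 16 that did not are tRNA genes with at most 35 counts over the 6 libraries. Of the 21, 16 rose in gld and 0 fell at an adjusted p of 0.05 (edgeR's quasi-likelihood test, Benjamini-Hochberg over 8692 genes). Of all genes tested, 9.74% rose and 7.69% fell. The 16 are the 13 mRNAs, both rRNAs and mt-Te. The median log2 difference was 0.80 over the 21 and 0.02 over all genes. In 18 of the 21, every gld library was above every wt library in CPM (counts scaled to library size on the TMM scale, which allows for composition), against 18.0% of all genes tested. Without the TMM correction the median of all genes moved to -0.14, the split of all calls went from 847 higher and 668 lower to 720 and 975, and 16 mitochondrial genes were still called higher.

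Both rRNAs rose, and mt-Rnr2 by more than mt-Rnr1. mt-Rnr2 (MT 1094 to 2675, plus strand), the RNA of the large mitochondrial ribosomal subunit, stood at 30120, 30717 and 25615 CPM in wt and 42823, 50635 and 48504 in gld. Its log2 difference was 0.72 ± 0.08 (SE; adjusted p = 1.97e-05). mt-Rnr1 (MT 70 to 1024), the RNA of the small subunit, stood at 13240, 12798 and 11324 CPM in wt and 15099, 19122 and 16401 in gld. Its groups did not overlap, but gld 1 lay close to the highest wt library, and the log2 difference was 0.44 ± 0.09 (SE; adjusted p = 0.00368), the smallest among the 16. The 2 genes are neighbours on 1 strand, separated by mt-Tv, yet the ratio of their counts differed between groups: mt-Rnr2 over mt-Rnr1 was 2.28, 2.40 and 2.26 in wt and 2.84, 2.65 and 2.96 in gld, without overlap (exact permutation p = 0.1).

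All 7 complex I mRNAs rose. Complex I takes electrons from NADH. mt-Nd4, a subunit of its proton-pumping membrane arm, stood at 7694, 9856 and 7827 CPM in wt and 16248, 16396 and 16685 in gld (log2 0.96 ± 0.09, adjusted p = 3.68e-06). The gld libraries lay close together, and wt 2 was above the other wt libraries. mt-Nd1 went from 6550, 6026 and 6087 to 10887, 10564 and 11041 CPM (log2 0.80 ± 0.07, adjusted p = 2.61e-06). mt-Nd2 went from 8430, 9868 and 7967 to 13897, 14074 and 15299 CPM (log2 0.72 ± 0.09, adjusted p = 3.38e-05). Neither gene overlapped between the groups, and both are subunits of the membrane arm. mt-Nd3, from a much lower level, went from 857, 727 and 840 to 1619, 1664 and 1545 CPM (log2 0.99 ± 0.10). mt-Nd5 went from 949, 994 and 824 to 1576, 1975 and 1686 CPM (log2 0.92 ± 0.12). Both again showed gld libraries that all lay above the wt libraries. mt-Nd4l, one of the shortest mRNAs, went from 94.9, 92.6 and 78.6 to 132, 156 and 171 CPM (log2 0.79 ± 0.17, adjusted p = 0.00419).

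mt-Nd6 is the only mRNA encoded on the minus strand (MT 13552 to 14070), and its last bases overlap the end of mt-Nd5. It stood at 644, 1004 and 625 CPM in wt and 1356, 1814 and 1484 in gld, with wt 2 well above the other wt libraries. Its log2 difference of 1.03 ± 0.17 (SE; adjusted p = 0.000482) was the highest among the mRNAs, and without wt 2 it was 1.29. The strand setting of the counting is not given in the sources used here. Reads of mt-Nd6 and of any plus-strand RNA across it therefore cannot be told apart, and whether its counts come from tailed mt-Nd6 mRNA was not tested.

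Complex III, which passes electrons to cytochrome c, has 1 mitochondrial subunit. mt-Cytb stood at 5637, 6597 and 5791 CPM in wt and 11369, 11201 and 9793 in gld (log2 0.84 ± 0.09, adjusted p = 8.41e-06). No 75-base window of mt-Cytb, mt-Nd1, mt-Nd6, mt-Atp8 or the rRNAs recurs in another annotated transcript in the annotation used, and all 4 of these mRNAs and both rRNAs were called higher.

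Complex IV is cytochrome c oxidase, and its catalytic core is encoded by mt-Co1, mt-Co2 and mt-Co3. mt-Co2 stood at 3282, 3554 and 3218 CPM in wt and 6771, 6866 and 6111 in gld (log2 0.97 ± 0.09, adjusted p = 1.38e-06). mt-Co3 went from 5088, 4792 and 5033 to 7864, 7710 and 7548 CPM, with a log2 difference of 0.63 ± 0.08 that was the lowest among the mRNAs (adjusted p = 2.92e-05). mt-Co1 went from 1166, 1284 and 1093 to 2347, 2251 and 2244 CPM (log2 0.95 ± 0.10). None of the 3 overlapped between groups.

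Complex V is the ATP synthase. mt-Atp6, part of its proton channel, stood at 4988, 4439 and 4787 CPM in wt and 7614, 7605 and 7493 in gld (log2 0.68 ± 0.08, adjusted p = 2.29e-05). mt-Atp8 went from 89.8, 101 and 78.6 to 138, 156 and 186 CPM (log2 0.83 ± 0.18, adjusted p = 0.00355). In mammals mt-Atp8 and mt-Atp6 sit on 1 shared mRNA, as do mt-Nd4l and mt-Nd4, and in both the upstream frame ends far from the poly(A) tail. The upstream gene held few of the counts: mt-Atp8 had 0.0164 to 0.0248 counts per count of mt-Atp6, and mt-Nd4l had 0.00814 to 0.0123 per count of mt-Nd4. Both ratios overlapped between the groups (exact permutation p = 0.5 for each).

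**Figure D2:**
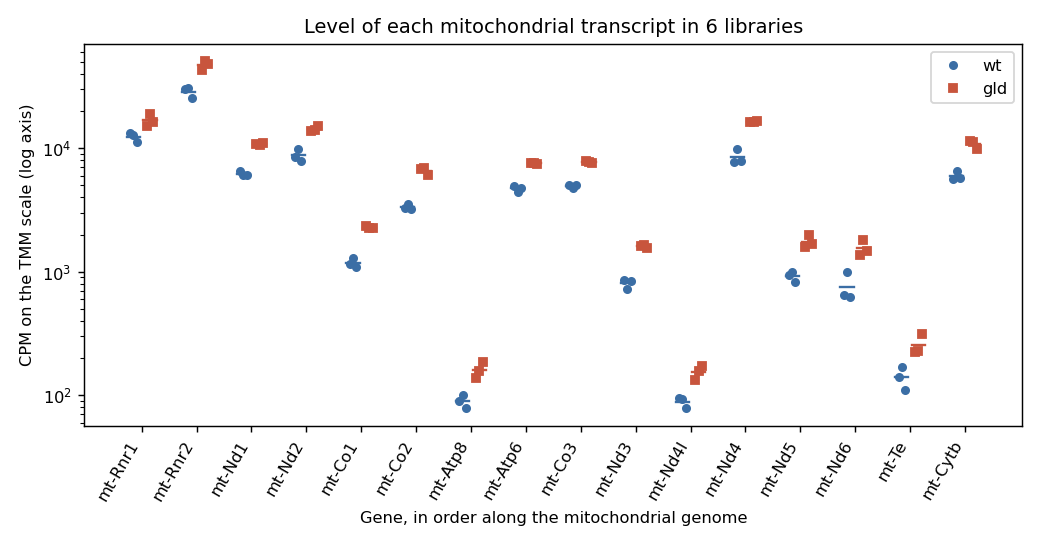
CPM on the TMM scale (log axis) of the 2 rRNAs, the 13 mRNAs and mt-Te, in order along the mitochondrial genome, with 1 point per library (wt blue, gld red) and a line at each group mean. In each of these 16 genes the 3 gld points lie above the 3 wt points, and the levels span from 78.6 CPM for mt-Atp8 in wt 3 to 50635 CPM for mt-Rnr2 in gld 2.

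Levels differed far more between genes than between groups. Per kilobase of gene length, the wt mean was 18216 CPM for mt-Rnr2, 13041 for mt-Rnr1, 8434 for mt-Nd2, 6957 for mt-Atp6, 6501 for mt-Nd1, 6341 for mt-Co3, 6139 for mt-Nd4, 5252 for mt-Cytb and 4900 for mt-Co2. The lower end was mt-Co1 with 764, mt-Nd5 with 506, mt-Atp8 with 440 and mt-Nd4l with 299 CPM per kilobase. A 3′ kit yields about 1 tag per molecule whatever its length, so division by length lowers long genes such as mt-Nd5. Within wt, mt-Atp6, mt-Nd1, mt-Co3 and mt-Nd4 are neighbours in this order whose differences are small beside the spread of mt-Nd4 over its libraries. This order leaves out counts at identical nuclear copies: the copy of mt-Atp6, Gm10925, held a further 7256 CPM per kilobase in wt and that of mt-Co3, Gm28437, a further 6618. mt-Nd1 has no such copy, so the places of mt-Atp6, mt-Co3, mt-Co2 and the other genes with copies depend on which gene those counts belong to.

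Counts of tRNA genes ranged from 0 to 4476 summed over the 6 libraries. mt-Te, the glutamate tRNA on the minus strand (MT 14071 to 14139), stood at 142, 169 and 111 CPM in wt and 223, 227 and 313 in gld (log2 0.86 ± 0.18, adjusted p = 0.00396). It lies directly beside mt-Nd6 on the same strand. mt-Ts1, a serine tRNA on the minus strand whose 3′ end overlaps the last bases of mt-Co1, had a log2 difference of 0.54 ± 0.21 and did not pass the test (adjusted p = 0.0968), but did so without wt 2 (0.72, adjusted p = 0.0446) and with no count filter (0.55, adjusted p = 0.0447). mt-Tm held only 1, 8 and 8 counts in the wt libraries, against 40, 15 and 63 in the gld libraries (log2 2.24 ± 0.85, adjusted p = 0.0919). The other 3 tested tRNAs had log2 values of -0.46 ± 0.29 for mt-Tq, -0.37 ± 0.86 for mt-Ty and 0.12 ± 0.20 for mt-Tp.

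Which tRNAs had counts went with their strand. Of the 8 tRNA genes on the minus strand 5 passed the count filter, and of the 14 on the plus strand 1 did, mt-Tm. The plus-strand tRNAs together held at most 0.00246% of the counts of a library, and the minus-strand tRNAs 0.0347% to 0.0639%. A minus-strand tRNA gene lies opposite the plus-strand precursor, and reads from that precursor cannot be told apart from tRNA without a known strand setting. Mature tRNAs carry no A tail, and mt-Td, mt-Tr and mt-Tl2 were listed at 0 in every library.

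Within the mitochondrial pool only differences among genes can be seen, since scaling to its total removes by construction any shift common to them. With libraries scaled to the sum of the mitochondrial counts, 0 of the 21 tested genes were higher and 3 were lower in gld (edgeR, adjusted p at most 0.05), where 5.18% of all genes tested were higher and 37.8% lower under that scaling. The 3 were mt-Rnr1 (log2 -0.30 ± 0.09, adjusted p = 0.0164), mt-Tq (-1.18 ± 0.28, adjusted p = 0.003) and mt-Tp (-0.62 ± 0.21, adjusted p = 0.0246). At an unadjusted edgeR p of 0.05, 2 were higher, mt-Co2 (0.24 ± 0.10, adjusted p = 0.0746) and mt-Nd4 (0.23 ± 0.10, adjusted p = 0.077). mt-Rnr1 made up 14.8%, 13.7% and 13.9% of the mitochondrial counts in wt and 10.8%, 12.5% and 11.2% in gld, without overlap (exact permutation p = 0.1, adjusted p = 0.43 over 43 genes and classes). In the other direction mt-Co1, mt-Co2, mt-Nd3, mt-Nd4 and mt-Nd5 did not overlap either, with ratios of the gld to the wt mean share of 1.14 to 1.19 and the same exact permutation p. Of the 43 items 10 did not overlap. The rest of these were mt-Tq, mt-Ty, mt-Tp and mt-Tg, all lower in gld, and mt-Tg had 11 counts in all. Shares of 1 total are tied, so a smaller share of mt-Rnr1 leaves a larger one for the other genes together. mt-Rnr2 made up 32.7% ± 1.17 and 32.2% ± 1.48 (SD, n = 3 each), with overlap. The ratio of all mRNA to all rRNA counts was 1.13 ± 0.0749 in wt and 1.28 ± 0.118 in gld and overlapped (exact permutation p = 0.2).

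Ratios between mRNAs varied between libraries as well. mt-Nd4 over mt-Co3 was 1.51, 2.06 and 1.56 in wt and 2.07, 2.13 and 2.21 in gld, so wt 2 lay beside the gld libraries and the groups were separated by very little. mt-Co3 and mt-Atp6, neighbours that share 1 base in the annotation, kept a ratio of 1.01 to 1.08 in all 6 libraries.

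**Figure D3:**
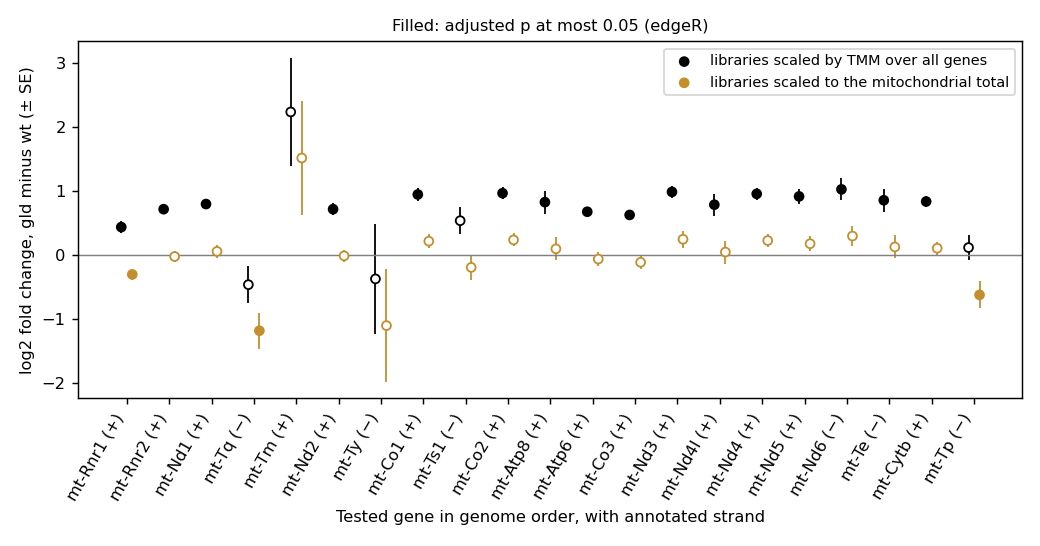
Log2 fold change of gld over wt with its SE (vertical axis) for the 21 tested genes in genome order with the annotated strand, scaled by TMM over all genes (black) or to the mitochondrial total (ochre). Filled points passed an adjusted p of 0.05 and open points did not. In black 16 genes are filled, all above 0, and in ochre the filled ones are mt-Rnr1, mt-Tq and mt-Tp, all below 0.

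The nuclear copies moved with the mitochondrial genes they resemble. All 7 annotated pseudogenes of the chromosome 1 block were called higher in gld, beside 9.74% of all genes tested, with a median log2 difference of 0.78. With sequence shared, these calls are not separate from those of the mitochondrial genes. Their share of counts was 1.67% ± 0.0412 in wt and 2.57% ± 0.0997 in gld for the 7 copies together (SD, n = 3 each). Gm28661 (chr1:24614885-24615565) is identical to mt-Co2 over 681 bases, Gm10925 (chr1:24613974-24614651) to mt-Atp6 over 678 and Gm28437 (chr1:24613189-24613971) to mt-Co3 over 783. Gm28661 had a log2 difference of 0.96 ± 0.09, Gm10925 0.69 ± 0.08 and Gm28437 0.64 ± 0.08, beside 0.97, 0.68 and 0.63 for their mitochondrial counterparts.

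The counts of these copies matched those of the mitochondrial genes nearly 1 to 1. The ratio of copy to mitochondrial counts over the 6 libraries was 1.02 to 1.06 for mt-Co2, 1.03 to 1.06 for mt-Atp6 and 1.04 to 1.06 for mt-Co3. The same held for Gm10222 beside mt-Nd4l (0.989 to 1.06) and Gm28438 beside mt-Nd3 (0.972 to 1.01). Gm28438 differs from mt-Nd3 at 1 base, T3C, with positions counted from 1 at the 5′ end of the mitochondrial gene and the mitochondrial base first. With identical sequence, counts at the copy and at the mitochondrial gene cannot be told apart, and how reads with several sources were counted is not given in the sources used here.

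In the 2 remaining pairs the copy covers only part of the gene. Gm28439 matches the first 876 of the 1378 bases of mt-Nd4, without its 3′ end, and had 31817 counts in all. Its counts were 0.104, 0.109 and 0.0950 of those of mt-Nd4 in wt and 0.112, 0.129 and 0.111 in gld. These ratios did not overlap between the groups (exact permutation p = 0.1). The log2 difference was 1.14 ± 0.13 for Gm28439 and 0.96 ± 0.09 for mt-Nd4. Gm29216 matches mt-Co1 from base 1054 to its end, 1545, with the differences A1059G, A1060G, C1062A and A1066T and 2 gaps. Its counts were 0.483, 0.532 and 0.502 of those of mt-Co1 in wt and 0.382, 0.417 and 0.386 in gld, without overlap (exact permutation p = 0.1). The log2 difference was 0.59 ± 0.12 for Gm29216 and 0.95 ± 0.10 for mt-Co1. The mt-Co1 end also recurs in Gm13340 on chromosome 2, which had 204 to 857 counts and a log2 difference of 0.51 ± 0.17 (adjusted p = 0.0484).

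**Figure D4:**
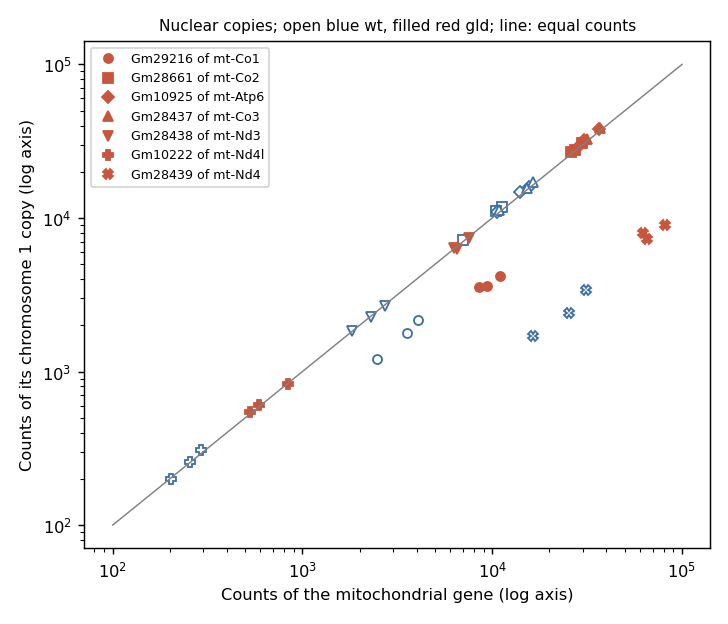
Counts of each chromosome 1 copy (vertical, log axis) against counts of its mitochondrial gene (horizontal, log axis), 1 point per library and pair, open blue for wt and filled red for gld; the line marks equal counts. The pairs of mt-Co2, mt-Atp6, mt-Co3, mt-Nd3 and mt-Nd4l lie on the line in all 6 libraries, and those of mt-Co1 and mt-Nd4 lie below it.

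The share was also larger in gld with the copies counted in or their genes left out. With the 7 copies added, the share of counts was 10.9% ± 0.444 in wt and 16.3% ± 0.523 in gld. If reads were counted at both places, this sum holds them more than once, and how they were counted is not given. Genes on other chromosomes that share a window are not in it. Among them are Gm13341 (log2 1.00 ± 0.14), which shares with mt-Co2, and Gm13339 (0.94 ± 0.15), which shares with mt-Nd2. Over the 28 mitochondrial genes without a shared 75-base window it was 5.73% ± 0.366 and 8.27% ± 0.496 (SD, n = 3 each). Neither share overlapped between the groups (exact permutation p = 0.1 for each). The 28 genes are mt-Nd1, mt-Nd6, mt-Atp8, mt-Cytb, the tRNA genes and the 2 rRNAs, which alone held 4.32% and 6.03%. All tRNA genes but mt-Tl1 are shorter than 75 bases, so they could not hold such a window. With each copy summed into its gene, 16 mitochondrial genes were called higher, the same genes as before.

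Few nuclear genes for mitochondrial proteins rose. Of 321 such genes in 12 lists, 139 were tested, and their median log2 difference was -0.12. Of the 139, 3 rose, or 2.16%, beside 9.74% of all genes tested, and 10 fell, or 7.19%, which is near the 7.69% of all genes. Of the 86 nuclear subunits of complexes I to V, 29 were tested, 0 rose and 5 fell, and 31 were listed at 0 in all libraries, which for this table does not show that a transcript is absent. Added up, the subunits reached 4340, 3914 and 4481 CPM in the wt libraries and 3512, 3333 and 3640 CPM in the gld libraries, without overlap (exact permutation p = 0.1). The 13 mitochondrial mRNAs held 10.5, 12.6 and 9.88 counts per count of these subunits in wt and 23.3, 24.7 and 22.3 in gld. The level of this ratio depends on which subunits the table counts and is no measure of their proportions in the cell. Complex I gave most of the sum, and the 17 nuclear subunits of complex IV reached only 10.3, 13.3 and 10.4 CPM in wt and 13.5, 21.4 and 11.5 in gld.

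The subunits that fell belong to complexes I, II and III. Ndufa2, a small subunit of complex I, stood at 719, 660 and 764 CPM in wt and 493, 457 and 536 in gld (log2 -0.53 ± 0.11, adjusted p = 0.00437). Sdhb, the iron-sulfur subunit of complex II, stood at 249, 264 and 275 CPM and 183, 171 and 173 (-0.58 ± 0.13, adjusted p = 0.00508). Uqcrfs1, the Rieske protein of complex III, stood at 193, 194 and 163 CPM and 113, 111 and 125 (-0.66 ± 0.15, adjusted p = 0.006). None of the 3 overlapped between groups, and each call held without any single library. Ndufb3 (log2 -0.54 ± 0.15) and Ndufa8 (-0.43 ± 0.14), further complex I subunits, were also called, but Ndufb3 lost its call without gld 1, gld 3 or wt 1 (adjusted p 0.0545 to 0.122) and Ndufa8 without any library but wt 2 (0.0532 to 0.216), with no count filter (0.0691) and with the replicate block (0.0581). Of complex IV 2 nuclear subunits were tested and of complex V 4, and none passed the test: Cox8a had -1.18 ± 0.92, Cox6a2 1.40 ± 1.35, Atp5g2 -0.19 ± 0.18 and Atp5b -0.09 ± 0.53. None of 20 tested assembly factors passed, among them Cox14 (-0.11 ± 0.14) and Coa5 (0.14 ± 0.18).

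The factors that maintain and transcribe the mitochondrial genome gave no call among 8 tested. Tfam, which packs mitochondrial DNA and starts its transcription, stood at 37.6, 35.1 and 42.1 CPM in wt and 52.4, 43.0 and 23.8 in gld (log2 0.05 ± 0.30, adjusted p = 0.953). Tfb2m, the partner of the mitochondrial RNA polymerase at the promoter, had a log2 difference of 0.04 ± 0.28. In both the gld libraries spread on either side of the wt libraries. Of 12 tested factors of RNA processing and translation 1 fell, Ptcd1 (-1.47 ± 0.38), and of 43 tested mitochondrial ribosomal proteins 1 fell, Mrps22 (-1.34 ± 0.32). Ptcd1 lost its call without gld 1, gld 2, wt 2 or wt 3 (adjusted p 0.0501 to 0.0785) and Mrps22 without wt 3 (0.0559).

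Of 6 tested regulators of mitochondrial biogenesis 1 rose. Ppargc1a, the coactivator that drives it, had 6, 12 and 3 counts in the wt libraries, against 98, 17 and 90 in the gld libraries (log2 2.65 ± 0.74, adjusted p = 0.0222). gld 2 lay near the highest wt library, and the call was lost without gld 1, gld 3, wt 1 or wt 3 (adjusted p 0.0531 to 0.145), with limma-voom (0.185) and with the replicate number as a block (0.0879). Among 12 tested genes of mitochondrial dynamics and mitophagy, Chchd3, which shapes cristae, and Fundc1, a mitophagy receptor, rose (log2 3.63 ± 0.95 and 0.85 ± 0.25) and Phb, a scaffold of the inner membrane, fell (-0.57 ± 0.17). Each of these 3 lost its call without some single library: Chchd3 without gld 2, gld 3, wt 1 or wt 3 (adjusted p 0.0513 to 0.0806), Fundc1 without gld 2, gld 3, wt 1 or wt 3 (0.0695 to 0.14) and Phb without gld 2, gld 3, wt 2 or wt 3 (0.0507 to 0.133). Chchd3 also lost it with limma-voom (adjusted p = 0.155) and the replicate block (0.0577), and Fundc1 with library size alone (0.0616). Of 9 tested stress response genes, the chaperone Hspa9 (-0.68 ± 0.12, adjusted p = 0.00104) and Mthfd2, of mitochondrial folate metabolism (-0.79 ± 0.23), fell, the latter not without gld 1, gld 2, wt 1 or wt 3 (0.0527 to 0.184).

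**Figure D5:**
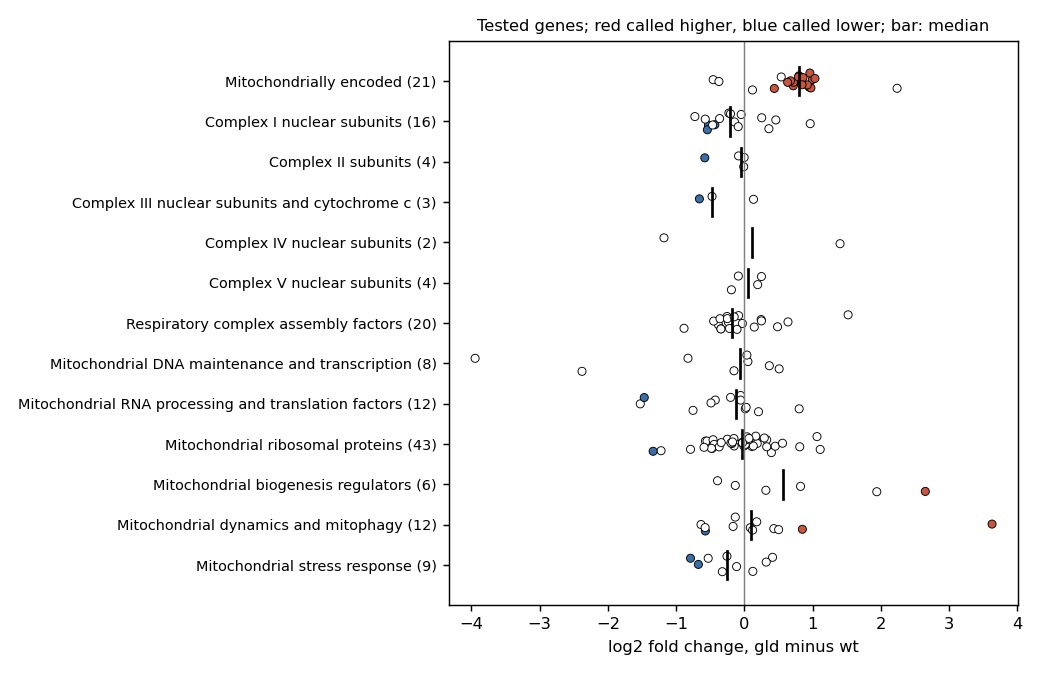
Log2 fold change of gld over wt (horizontal axis) for each tested gene, 1 row per gene list with the number tested, red for called higher, blue for called lower, open for not past the threshold, and a bar at the list median; vertical scatter within a row is for legibility. The mitochondrially encoded genes have a median of 0.80, while the 139 nuclear genes over all lists have one of -0.12.

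Markers of other cell types moved with the groups too. The macrophage and osteoclast list summed to 446, 615 and 425 CPM in wt and 2905, 4262 and 7068 in gld. Of its 20 genes 11 were tested, of which 10 rose, beside 9.74% of all genes tested, and Cd14 fell. The median log2 difference of the 11 was 8.19. C1qb and Cd52 each had 0, 2 and 0 counts in wt. In gld C1qb had 334, 442 and 1088 and Cd52 437, 383 and 1261. Marco and C1qc had 0 counts in every wt library, against 260, 242 and 492 and 373, 648 and 1435 in gld. Almost none of the wt sum came from these genes. Another 8 genes were listed at 0 in all libraries, among them Adgre1, Csf1r, Tyrobp and Acp5. The osteoblast list summed to 16313, 23987 and 17207 CPM in wt and 61399, 67645 and 61680 in gld. Nearly all of this sum came from Col1a1 and Col1a2, which encode collagen I. Col1a1 had a mean of 7621 CPM in wt and 27144 in gld, and Col1a2 of 11321 and 36358. Of 6 tested genes 4 were higher, these among them. Alpl, the bone alkaline phosphatase, was lower, with a mean of 222 CPM in wt and 48.2 in gld. Phospho1 was at 0 and Bglap had 1 count in all, while Runx2, Alpl, Ibsp and Dmp1 were detected. Of nuclear-retained RNAs, Meg3 and Neat1 rose (log2 1.99 ± 0.15 and 1.66 ± 0.32) and the other 3 did not pass. The skeletal muscle list had 1 tested gene, Acta1, higher (2.59 ± 0.54), the adipocyte list 1, Lpl, lower (-2.32 ± 0.17), and the endothelial list 2, neither past the test, with Pecam1 and Cdh5 at 0. The part of cell composition, and of the greater depth of the gld libraries, in the mitochondrial difference was not tested.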

How the data were processed

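RNA of calvaria-derived mouse cells was measured in 3 wt and 3 gld libraries. Per the labels' protocols these were QuantSeq 3′ FWD libraries, and reads were single-end of 75 nt per the series' design text. The authors deposited raw counts, 1 whole number per library and Ensembl gene. Tools listed in the submitters' processing notes are Trim Galore, FastQC and DESeq2, and the build is mm10 (GRCm38). Not given in the sources used here are the counter, its strand setting and its treatment of reads with several sources. The 1 row without an identifier was left out.

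Symbols and positions came from GENCODE M21. Counts were kept by filterByExpr (about 10 in 3 libraries, 15 in total), scaled by TMM and tested with edgeR 4.0.16 (quasi-likelihood, no covariate, R 4.3.3, alpha 0.05), with DESeq2 1.42.0 and limma-voom 3.58.1 as alternatives. SEs are the absolute log2 fold change over the square root of F. Fold changes are log2, gld minus wt, and single values were compared by two-sided exact permutation (scipy 1.17.1). Shared sequence was counted as 75-base windows found in transcripts of other genes on either strand. The model was tested on simulated counts.

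Every mitochondrial gene was accounted for. Each nuclear list contributed at most 4 called members by adjusted p, and without a call its 2 most abundant tested members. Members and lists were chosen with earlier results of these data known, and summing the copies and the window-based share were added after the data were seen. Marker genes beyond the first 4 called are named as examples chosen after their values were seen. Replicate numbers are not known to pair libraries.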

Additional observations from a re-analysis of the deposited data

How the results depend on the processing

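The same 16 mitochondrial genes were called higher, and 0 lower, with DESeq2, limma-voom, other size factors, library size alone, nuclear scaling, the replicate block (16), summed copies, an adjusted p of 0.01 and without any single library (16 to 17; 0 lower throughout). No filter gave 17. Scaling to the mitochondrial total instead gave 0 higher and 3 lower, and set below 0 mt-Rnr1 (-0.30), mt-Rnr2 (-0.02), mt-Nd2 (-0.01), mt-Ts1 (-0.19), mt-Atp6 (-0.06), mt-Co3 (-0.11) and mt-Tp (-0.62); by construction it removes a shift common to these genes. The ratio of shares was 1.44 to 1.58 over all alternatives, and 1.45 to 1.52 without single libraries. Of the nuclear mitochondrial genes, 18 were lower with library size alone, and 1 was higher with limma-voom and 1 with the replicate block, Ppargc1a and Chchd3 being lost in both; without single libraries 0 to 3 were higher and 5 to 9 lower. The cause was not tested. Library size alone turned mt-Tp (-0.04), Coa5 (-0.01), Tfb2m (-0.12) and Tfam (-0.10). The replicate block turned Tfb2m (-0.02), Tfam (-0.01) and Fas (0.00), and limma-voom Tfam (-0.06) and Fas (0.05). Leaving out single libraries turned mt-Tp (-0.06 at the lowest, 0.32 at the highest), Atp5b (-0.69 to 0.17), Tfb2m (-0.35 to 0.21), Tfam (-0.22 to 0.30) and Fas (-0.25 to 0.11); none of these was called. Same-numbered libraries did not deviate together (correlations -0.0231, -0.015 and -0.0227). The 16 tRNA genes under the count filter give no comparison at this depth.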
